A study of Rattus norvegicus with 20 samples.

Results

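Lcn2 encodes lipocalin 2, a small secreted protein that binds the iron-carrying siderophores of bacteria. It was followed across the femur RNA of inbred alcohol-preferring (P) rats, inbred alcohol-nonpreferring (NP) rats and the reciprocal congenic strains made from them. The gene was chosen by its large difference in array signal between strain backgrounds, and all probe sets carrying the symbol Lcn2 were taken. There was 1 such probe set (1387011_at) among 31042 that are not controls, and Lcn2 was 1 of 14217 genes with a probe set of a single symbol. It passed the filter on low values, as did 18625 probe sets in all.

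RNA from the femur of 20 rats (the proximal femur by the sample labels), 5 of each strain and all 4 weeks old, was hybridised to Affymetrix Rat Genome 230 2.0 arrays. P and P.NP rats share the P background, and P.NP rats carry the NP segment of chromosome 4 on it. NP.P and NP rats share the NP background, and NP.P rats carry the P segment of chromosome 4 on it. The congenic strains were bred by repeated backcrossing, so each exchanged segment holds many genes and no single gene is isolated. The animals of a strain are separate rats of 1 inbred line, so the spread between arrays is that of genetically alike animals. Lcn2 lies on chromosome 3 (GRCr8, 36078432 to 36081851, 3420 bases), outside the exchanged segment. Values are MAS5 signals, which are array intensities on a linear scale, and differences are given on the log2 scale.

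In bone marrow, lipocalin 2 is made by maturing neutrophils and stored in their specific granules, beside the antimicrobial peptide of the Camp gene and other defence proteins. Neutrophils fill their granules in a fixed order, azurophil granules first, then specific and then gelatinase granules. Other cells, such as epithelial cells, hepatocytes and macrophages, make lipocalin 2 when interleukin 1, interleukin 17 or bacterial products activate NF-kB, its cofactor I kappa B zeta (Nfkbiz) and C/EBP factors. In mice, osteoblasts also secrete it, and it acts on the brain through the melanocortin 4 receptor. By keeping iron from bacteria it limits their growth.

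The sequence before the gene is shown because Lcn2 is regulated through factors whose short motifs can be looked for there. It is taken from the RefSeq promoter table of GRCr8 and covers the 179 bases before the outermost annotated end of Lcn2, on the minus strand at chr3:36081852-36082030. The start site used by the table lies 71 bases inside that end, and positions below are counted from it. The promoter of Pglyrp1 is shown beside it, because Pglyrp1, a specific granule gene for a peptidoglycan recognition protein, was the neutrophil gene whose variation between animals was closest to that of Lcn2. It covers the 250 bases before the start site, on the plus strand at chr1:87659613-87659862. Capitals mark matches to a C/EBP, NF-kB or PU.1 motif.
Lcn2: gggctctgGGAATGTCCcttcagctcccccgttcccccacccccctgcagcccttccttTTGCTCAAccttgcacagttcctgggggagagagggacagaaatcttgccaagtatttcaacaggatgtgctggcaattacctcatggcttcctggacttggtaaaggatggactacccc
Pglyrp1: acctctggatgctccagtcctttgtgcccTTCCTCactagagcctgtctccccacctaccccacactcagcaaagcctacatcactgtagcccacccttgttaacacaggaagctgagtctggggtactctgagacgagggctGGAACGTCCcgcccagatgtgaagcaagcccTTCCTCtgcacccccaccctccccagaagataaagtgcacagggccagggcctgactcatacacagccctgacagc
The motifs were spelled TTNNGNAA for C/EBP, GGAANNTCC for NF-kB and GAGGAA for PU.1, and were searched on both strands in windows of 300 bases, 250 before and 50 after the start. In Lcn2, the NF-kB letters GGAATGTCC stood at -242 to -234 and the C/EBP letters TTGCTCAA, a match on the opposite strand, at -191 to -184. A PU.1 match at 4 to 9 after the start lies outside the stretch shown. In Pglyrp1, the NF-kB letters GGAACGTCC stood at -107 to -99, and PU.1 matches stood at -221 to -216 and -76 to -71. None of these matches overlapped another. Of 33469 promoters of that length, 41.3% held the C/EBP letters, 4.09% the NF-kB letters and 27.6% the PU.1 letters. Of the 8 other specific granule genes with a named probe set and a promoter in the table, 4 held the C/EBP letters, 1 the NF-kB letters and 2 the PU.1 letters. A match describes the letters and is not a measured binding site.

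The array signal of Lcn2 was about 14 times lower on the P background than on the NP background, and the signals of the 2 backgrounds did not come near each other. In P rats its signal was 1009, 808, 963, 922 and 809. In P.NP rats it was 822, 756, 974, 862 and 863. In NP.P rats it was 11708, 10155, 11494, 8990 and 11630. In NP rats it was 13701, 13848, 15157, 13473 and 12423. All 10 animals of the P background were thus below all 10 of the NP background, and the lowest NP-background animal had 8.91 times the signal of the highest P-background animal. The means were 902 ± 91.0 in P, 856 ± 79.6 in P.NP, 10795 ± 1193 in NP.P and 13720 ± 978 in NP rats (SD, n = 5 each).

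**Figure D1:**
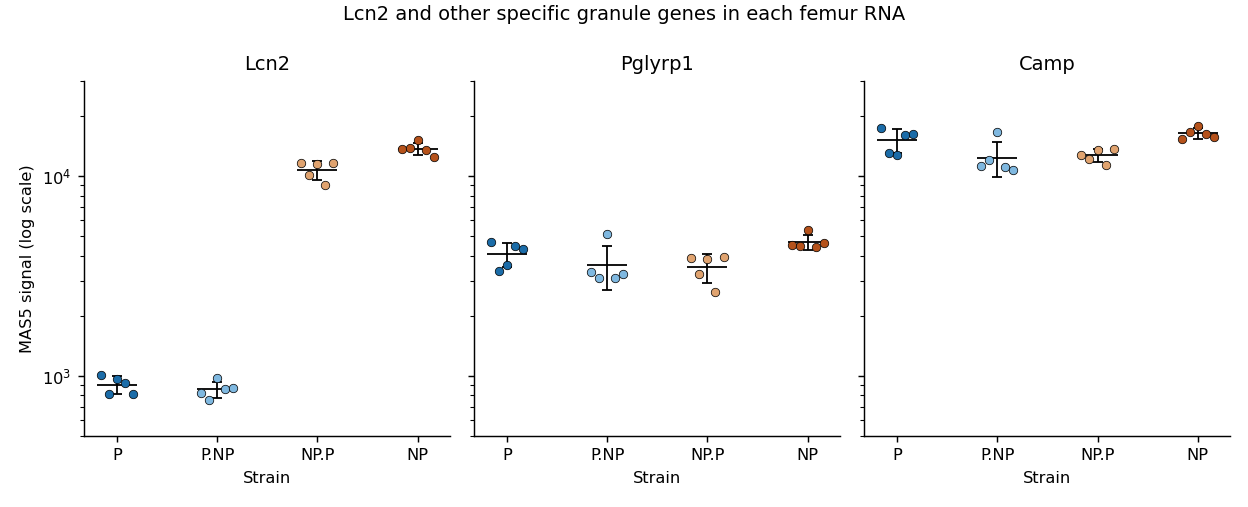
MAS5 signal (log axis) of Lcn2, Pglyrp1 and Camp in every animal of the P, P.NP, NP.P and NP strains; points are arrays, and the bars give the mean and SD of 5. Lcn2 lies between 756 and 1009 on the P background and between 8990 and 15157 on the NP background, while the other granule genes overlap between backgrounds; signals are compared between strains within a gene, not between genes.

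Averaged over the strains of each background, Lcn2 was 13.9-fold or 92.8% lower on the P background (log2 difference -3.79, SE 0.06 from the limma fit). This difference is the one that chose the gene, so it is a description and was not tested. The single pairs of strains gave -3.93 for P minus NP (15.2-fold), -3.58 for P minus NP.P (11.95-fold), -4.01 for P.NP minus NP (16.1-fold) and -3.65 for P.NP minus NP.P (12.6-fold). The background difference was 27.3 times the pooled SD within strains, 0.139 on the log2 scale. Of the variance of log2 Lcn2 over the 20 arrays, 99.1% lay between the backgrounds and 0.426% within strains. The SD of log2 Lcn2 was 0.15 in P, 0.13 in P.NP, 0.17 in NP.P and 0.10 in NP rats.

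Lcn2 was still measured above the filter on the P background, with a geometric mean of 875, 5.16 times the filter of 170. Over all probe sets, 11.1% were called higher and 11.3% lower on the P background at a false discovery rate of 10%, so a difference between backgrounds was common, but few were of this size. Lcn2 ranked number 6 of 18625 by the size of the difference and number 3 among those lower on the P background. Those with a larger difference in that direction were RT1-Bb, a class II histocompatibility gene (log2 difference -5.63 at 1 probe set and 3.22, the opposite direction, at another), and a probe set without a gene symbol (-4.05). The 3 larger ones that were higher on the P background were RT1-Ba, another class II gene (5.07), and probe sets without a symbol (6.79 and 4.68). The next smaller one was Sgcb, a sarcoglycan gene (-3.37). A single probe set reads Lcn2, and probe sequences were not analysed here, so the part of a base change under the probes in the signal was not tested. Because the RNA comes from whole pieces of bone with marrow, fewer cells of a type and less RNA per cell cannot be told apart.

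Within the NP background, the P segment of chromosome 4 went with a small decrease. Lcn2 averaged 10795 in NP.P rats and 13720 in NP rats, and all 5 NP.P animals (at most 11708) were below all 5 NP animals (at least 12423). The log2 difference was -0.35 (SE 0.09, 95% interval -0.54 to -0.16), 21.6% lower, with an adjusted p of 0.0774 over all probe sets (limma, Benjamini-Hochberg), past the 10% threshold. The two-sided exact permutation test over 5 against 5 animals gave p = 0.00794, the smallest that 252 arrangements allow. In this comparison 0.816% of all probe sets were called higher and 1.49% lower. The call was lost when any of 5 animals was left out. Without NP replicate 1, 3 or 4 the adjusted p was 0.136, 0.164 or 0.114, and without NP.P replicate 2 or 4 it was 0.173 or 0.200. It was also lost without the filter (0.169), with only these strains in the fit (0.206) and with the unequal-variance test of the study's methods (0.259). It was kept with a filter at the 60th percentile (0.0428), a trend of variance with level (0.0406) and quantile normalization (0.0499).

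Within the P background no difference was called. Lcn2 averaged 856 in P.NP rats and 902 in P rats, and the ranges of the strains overlapped. The log2 difference was -0.08 (SE 0.09, 95% interval -0.27 to 0.12), so ratios of 0.831 to 1.08 remained within the interval. The adjusted p was 0.934 (limma) and the two-sided exact permutation test gave p = 0.413. In this comparison 0.113% of all probe sets were called higher and 0.118% lower. P replicate 2, in which the 7 cartilage genes tested had the lowest summed signal of all arrays (48986, where the next lowest array had 101644), moved it little, to -0.11 without that animal (adjusted p = 0.863).

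Whether the P segment had a different effect on the 2 backgrounds was tested as an interaction. The same contrast also sets the congenic strains against the inbred strains. The effect of the P segment was 0.43 lower on the NP background than on the P background (log2 difference of differences -0.43, SE 0.13, 95% interval -0.70 to -0.15). It did not pass over all probe sets (unadjusted p = 0.00395, adjusted p = 0.257, limma), where 0.317% were called. The step between NP.P and NP was therefore not shown to differ from that between P and P.NP.

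The genes that neutrophils make beside Lcn2 had no such difference between backgrounds. Of 52 neutrophil genes listed, other than Lcn2, 32 had a named probe set and 29 passed the filter. Their background differences had a median of -0.05 and ran from -1.15 to 0.45, where the median over all probe sets was 0.02. On the P background 1 was called higher and 3 lower (limma), beside the 11.1% and 11.3% of all probe sets. The highest call was Fcnb, the gene of ficolin B, a lectin of gelatinase granules (log2 difference 0.33, SE 0.07, adjusted p = 0.00212). The lower calls were Stfa3, a stefin that inhibits cathepsins and whose probe set may read close copies (-1.15, SE 0.25, adjusted p = 0.00365), Cybb, the large subunit of the NADPH oxidase (-0.24, SE 0.09, adjusted p = 0.0778), and Csf3r, the receptor for granulocyte colony-stimulating factor (-0.21, SE 0.08, adjusted p = 0.0899). Stfa3 was read near the filter of 170, with means of 190 in P, 111 in P.NP, 283 in NP.P and 317 in NP rats. Its call, and the -1.15 end of the range, thus rest on values near the filter, under it in P.NP rats. The count of 4 moved between 2 and 8 as single animals were left out, with 8 without P.NP replicate 3 and 7 without NP.P replicate 4.

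**Figure D2:**
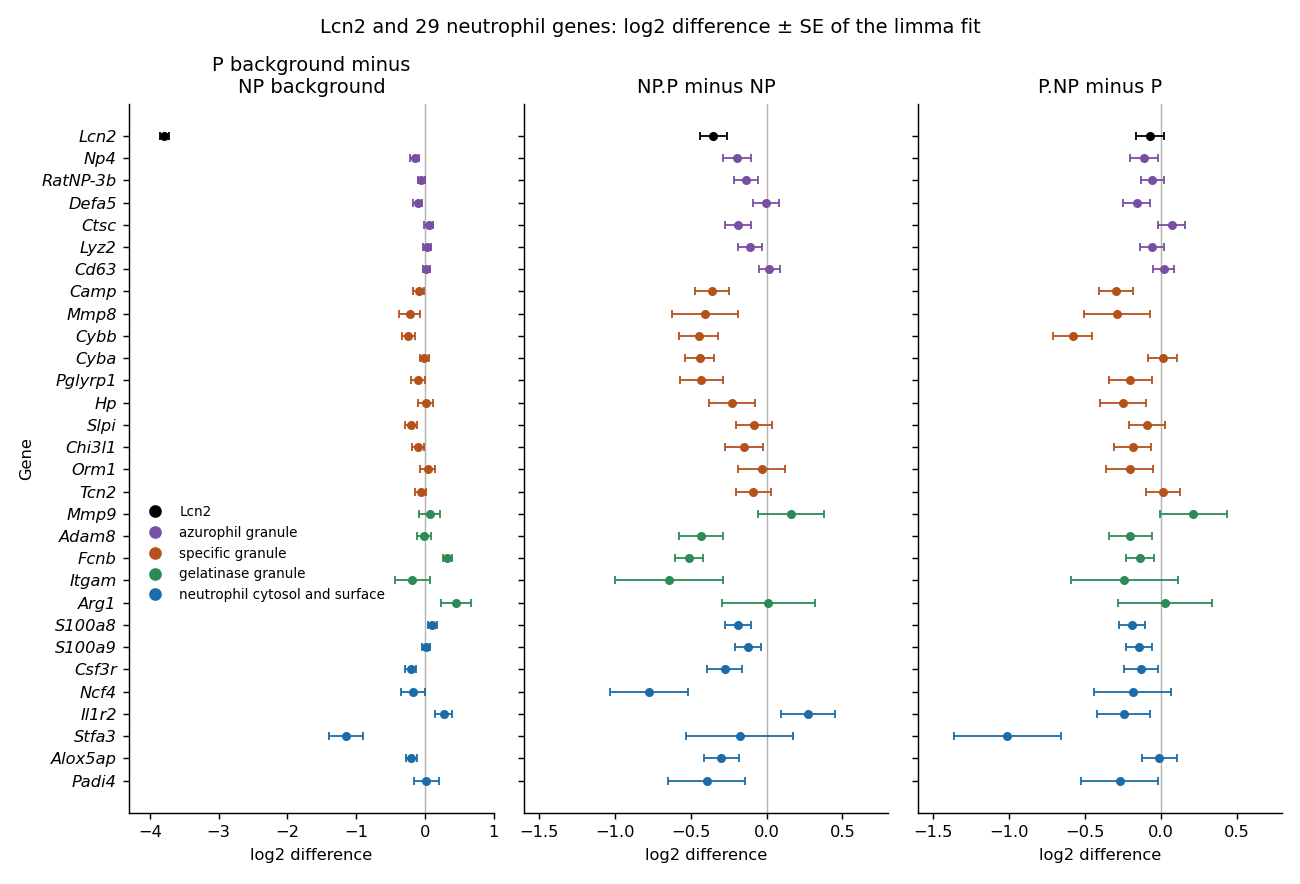
Log2 difference and SE of the limma fit for Lcn2 (top) and 29 neutrophil genes, for P against NP background (left), NP.P against NP (middle) and P.NP against P (right), with a wider axis in the first panel. Lcn2 lies at -3.79 in the first panel, where the other genes run from -1.15 to 0.45, and among them in the other panels.

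The specific granule genes, which belong to the same granule as Lcn2, were measured at similar levels on the 2 backgrounds. Camp, the gene of the cathelicidin peptide, had 17437, 13137, 12792, 16053 and 16219 in P rats, 11310, 12109, 16605, 11128 and 10684 in P.NP rats, 12816, 12267, 13588, 11419 and 13675 in NP.P rats, and 15354, 16713, 17847, 16315 and 15671 in NP rats. Its levels overlapped between backgrounds, and the log2 difference was -0.09 (adjusted p = 0.467). Pglyrp1 had 4669, 3343, 3571, 4463 and 4295 in P rats, 3318, 3103, 5152, 3089 and 3239 in P.NP rats, 3875, 3233, 3837, 2617 and 3935 in NP.P rats, and 4514, 4465, 5383, 4399 and 4604 in NP rats. Its levels overlapped as well, with a log2 difference of -0.09 (adjusted p = 0.577). Of the 10 specific granule genes tested, 0 were called higher and 1 (Cybb) lower on the P background, beside 11.1% and 11.3% of all probe sets. Mmp8, the neutrophil collagenase, differed by -0.22 (adjusted p = 0.359), Slpi, a protease inhibitor, by -0.20 (adjusted p = 0.109) and Hp, the haemoglobin-binding haptoglobin, by 0.01 (adjusted p = 0.964). Their summed signal ran from 32555 to 48213 on the P background (median 39711) and from 34258 to 51624 on the NP background (median 42948), so the ranges overlapped nearly throughout.

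Genes of the other granules and of the neutrophil's cytosol and surface were similar. Over all probe sets, 11.1% were called higher and 11.3% lower on the P background (30.0% at an unadjusted p under 0.05), so few calls are due in short lists. None of 6 azurophil granule genes was called between backgrounds (limma; 1 at an unadjusted p under 0.05). Np4, a neutrophil defensin, differed by -0.15 (adjusted p = 0.134) and Lyz2, a lysozyme, by 0.03 (adjusted p = 0.771). Of 5 gelatinase granule genes, Fcnb alone was called, while Mmp9, the gelatinase to which human lipocalin 2 binds, differed by 0.07 (adjusted p = 0.810). Of 8 genes of the cytosol and surface, Stfa3 and Csf3r were called. S100a8 and S100a9, the calprotectin subunits that fill the neutrophil's cytosol, differed by 0.11 (adjusted p = 0.246) and 0.02 (adjusted p = 0.892). Mpo, Elane, Ltf and Ngp, defining granule genes, were not analysed here, and Crisp3, Cxcr2 and Ncf1 were under the filter. With each array's Lcn2 taken relative to the 10 specific granule genes, the background difference was -3.70, close to the -3.79 without that step.

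Within the NP background, most neutrophil genes had, as Lcn2 did, lower values in NP.P than in NP rats, though few were called. The log2 difference was below 0 for 25 of 29, with a median of -0.19, where the median over all probe sets was -0.01. Called lower (limma) were Fcnb (-0.51, SE 0.09, adjusted p = 0.0141) and Cyba, the small subunit of the NADPH oxidase (-0.44, SE 0.10, adjusted p = 0.0340), and 0 were called higher, beside the 1.49% and 0.816% of all probe sets. At an unadjusted p under 0.05 (limma) there were 12 of the 29, beside 13.1% of all probe sets. The unequal-variance test of the study's methods, run here on MAS5 signals, called 0 after adjustment. Its unadjusted count was 14, for which no share over all probe sets is given here. All 10 specific granule genes had a difference below 0, with a median of -0.30. Camp was at -0.36 (adjusted p = 0.132) and Pglyrp1 at -0.43 (adjusted p = 0.166). The count of 2 became 6 without P.NP replicate 3 and 1 without NP.P replicate 4.

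Lists of other cell types had their own differences between NP.P and NP rats. Of all probe sets, 0.816% were called higher and 1.49% lower (limma), and their median difference was -0.01. By the same limma calls, 3 of 9 erythroid genes were called higher (all 9 above 0, median 0.25). Among those called was Kel (log2 difference 0.36, adjusted p = 0.0203), which the paper lists within the exchanged segment of chromosome 4. The part of its own allele in that difference was not tested. Called lower were 4 of 7 eosinophil, basophil and mast cell genes, Prg2, Epx, Mcpt8 and Cpa3, with log2 differences of -0.79, -0.82, -0.86 and -0.56 (all 7 below 0, median -0.66), 3 of 5 B lymphoid genes (all 5 below 0, median -0.35), 3 of 6 megakaryocyte genes (all 6 below 0, median -0.34) and 1 of 11 macrophage genes (10 below 0, median -0.23). The part of these cell types in the neutrophil and Lcn2 differences was not tested.

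Set against those 10 genes, Lcn2 was not shown to differ more than they did. Relative to them, its log2 difference between NP.P and NP rats was -0.08 (two-sided exact permutation p = 0.0952, n = 5 each; smallest possible p 0.00794). Against all 29 neutrophil genes it was -0.12 (exact p = 0.0238), and with quantile-normalised values against the 10 it was -0.14 (exact p = 0.0317). Without NP.P replicate 5 it was -0.11 (exact p = 0.0238). Relative to the 10 genes, Lcn2 differed by 0.13 between P.NP and P rats (exact p = 0.294).

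On the P background, 1 neutrophil gene was called between P.NP and P rats, beside the 0.113% higher and 0.118% lower of all probe sets. Cybb was lower in P.NP rats (log2 difference -0.58, SE 0.13, adjusted p = 0.09998, limma). That call stood at the edge of the threshold and was lost when any of 16 arrays was left out. In all, 23 of the 29 genes had a difference below 0, with a median of -0.16. Between NP.P and NP rats it was 25 of the 29. Most were thus lower in each congenic strain than in the inbred strain of its background. The part of a difference between congenic and inbred strains, apart from the segment, was not tested.

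From animal to animal within a strain, Lcn2 varied with the other neutrophil genes. With the strain means removed, all 29 had a positive Pearson r with Lcn2 over the 20 arrays, where 7422 of all 14135 tested probe sets with 1 symbol did (median r 0.02). The median r was 0.43 for the specific granule genes, 0.34 for the azurophil granule genes, 0.33 for the gelatinase granule genes and 0.46 for the genes of the cytosol and surface. These points share the array, its scaling and the piece of tissue taken, and genes are not independent of each other, so the values are a description. Pglyrp1 had the highest r of the 29, 0.74, followed by Itgam, an integrin subunit (0.61), Alox5ap, which serves leukotriene synthesis (0.58), and Np4 (0.57). P.NP replicate 3 was the highest P.NP animal in Lcn2, Camp and Pglyrp1. NP replicate 3 was the highest NP animal, P replicate 1 the highest P animal and NP.P replicate 4 the lowest NP.P animal in all of these genes. Other P animals did not follow. P replicate 3 was above its strain mean in Lcn2 (log2 deviation 0.10) but below it in Camp (-0.23) and Pglyrp1 (-0.18). P replicate 5 was below it in Lcn2 (-0.15) but above it in Camp (0.11) and Pglyrp1 (0.09).

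**Figure D3:**
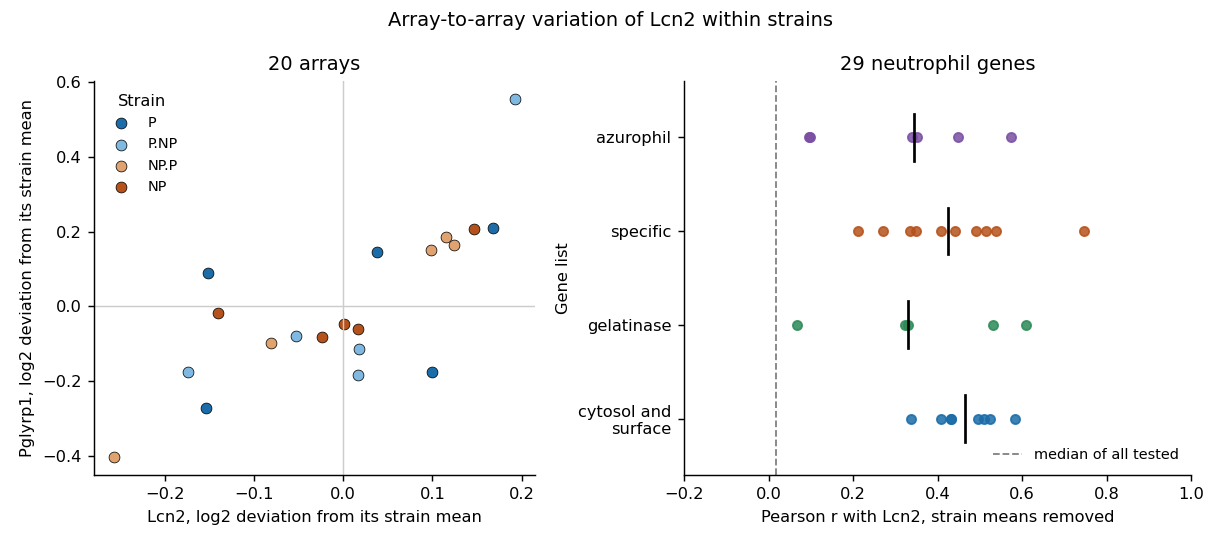
Left, log2 deviation from the strain mean of Lcn2 (x) and Pglyrp1 (y) in the 20 animals, coloured by strain; right, Pearson r of each of 29 neutrophil genes with Lcn2 after the strain means were removed (points), with the median of each list (black line) and of all tested probe sets (dashed, 0.02). All 29 points lie above 0, from 0.07 for Arg1 to 0.74 for Pglyrp1.

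Other cell types varied with Lcn2 to differing degrees. The median r was 0.40 for 5 B lymphoid genes, 0.34 for 11 macrophage genes, 0.33 for 7 genes of eosinophils, basophils and mast cells, 0.13 for 8 osteoblast and osteocyte genes and 0.03 for 9 erythroid genes. Among all tested probe sets with 1 symbol, the closest with strain means removed were Prr13 (r = 0.80), Evi2b (0.78), Lcp1, the leukocyte actin-bundling protein plastin (0.76), Men1, the gene of menin (0.76), and Abhd13 (0.75). Their background differences were small, between -0.16 and 0.06. With the strain means kept, the closest over the 20 arrays were Elavl1, an RNA-binding protein (r = 0.99), Setd1b, a histone methyltransferase (0.98), Letm1, a protein of the inner mitochondrial membrane (0.98), Uqcc6 (0.98) and Snrpf, a spliceosome protein (0.97). They lie on chromosomes 12, 14 and 7, and each was lower on the P background, with log2 differences of -2.52, -2.81, -2.05, -1.44 and -0.95. Over all arrays the r thus follows the step between backgrounds, and in Elavl1, the closest, NP.P minus NP was 0.14, where it was -0.35 in Lcn2.

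The genes next to Lcn2 on chromosome 3 did not share its difference. The 10 nearest tested protein-coding genes on each side, which span 645 kb (GRCr8, 35753712 to 36399016), had background differences from -0.39 to 0.23 with a median of 0.11. Called higher on the P background (limma) were 2 of the 20, Prrc2b (log2 difference 0.22, SE 0.05, adjusted p = 0.00859) and Bbln, the nearest on the low-coordinate side at 3.36 kb (0.20, SE 0.05, adjusted p = 0.0104), and 0 were called lower, beside the 11.1% and 11.3% of all probe sets. Ptges2, a prostaglandin E synthase and the nearest on the other side at 6.39 kb, differed by 0.20 (adjusted p = 0.121). Without P replicate 2 the count was 4.

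**Figure D4:**
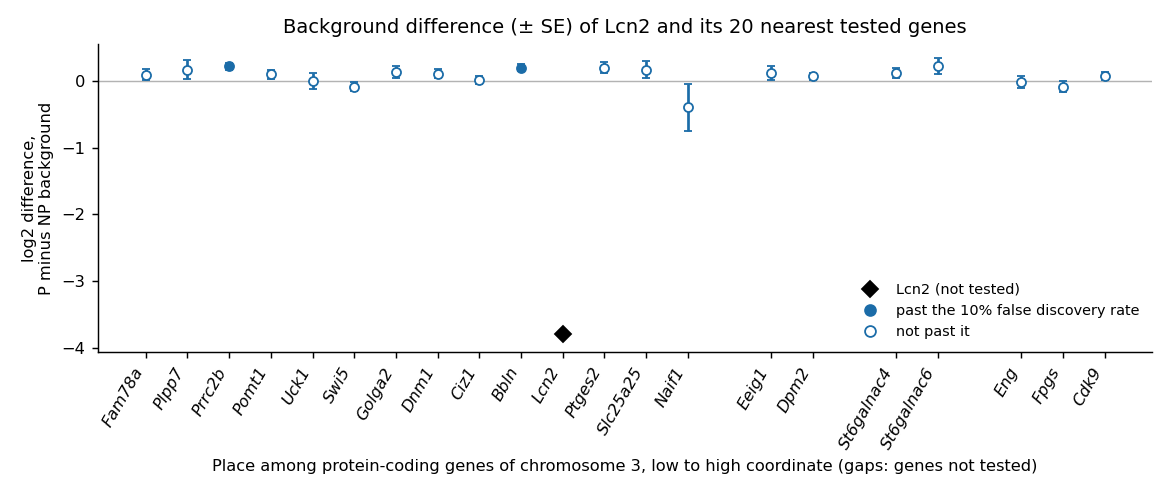
Background log2 difference and SE of Lcn2 (diamond, not tested) and its 20 nearest tested genes on chromosome 3, in gene order; filled circles passed the false discovery rate of 10%. Lcn2 lies at -3.79 and the neighbours between -0.39 and 0.23.

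Genes that act on Lcn2 or with it were also read. Of 66 pathway genes listed, 58 had a named probe set and 41 passed the filter, with Mmp9 also among the neutrophil genes. Of the 41, 4 were higher and 4 lower on the P background (limma), beside the 11.1% and 11.3% of all probe sets, with a median difference of 0.03. Among 15 tested regulators, 0 were called (limma; 1 at an unadjusted p under 0.05, beside 30.0% of all probe sets). Cebpe, the C/EBP factor that granulocytes need for specific granule genes, differed by -0.22 (adjusted p = 0.185), Cebpb by -0.20 (adjusted p = 0.328) and Nfkbiz by -0.14 (adjusted p = 0.276). The NF-kB subunits Nfkb1, Nfkb2, Rela and Relb differed by 0.06 to 0.24, and none was called.

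Among the inducers, Il6r, the interleukin 6 receptor, was lower on the P background (log2 difference -0.49, SE 0.08, adjusted p = 0.000177) and Il1r1, the interleukin 1 receptor, was higher (0.21, SE 0.07, adjusted p = 0.0593). Il1b, the gene of interleukin 1 beta, differed by 0.04 (adjusted p = 0.906), and Il6, Tnf and Csf3 were under the filter. Of the genes that inflammation induces beside lipocalin 2, complement C3 was lower on the P background (-0.67, SE 0.08, adjusted p = 8.92e-06). Steap4, a metalloreductase (0.37, SE 0.08, adjusted p = 0.00336), and Cp, the copper-carrying ferroxidase ceruloplasmin (0.21, SE 0.08, adjusted p = 0.0958), were higher. Of the genes of iron handling, Slc11a2, an iron importer (-0.26, SE 0.06, adjusted p = 0.00362), and Tfrc, the transferrin receptor (-0.13, SE 0.05, adjusted p = 0.0865), were lower, and Slc40a1, the iron exporter ferroportin (0.13, SE 0.05, adjusted p = 0.0974), was higher. The lipocalin 2 receptor gene Slc22a17 differed by 0.12 (adjusted p = 0.297), and Lrp2 and Mc4r, genes of other receptors, were under the filter. The count of 8 moved between 4 and 10 as single animals were left out.

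In the comparisons within a background, 0 of the 41 pathway genes were called by limma. Over all probe sets, 0.816% were called higher and 1.49% lower between NP.P and NP rats, and 0.113% and 0.118% between P.NP and P rats. At an unadjusted p under 0.05 (limma) there were 12 of the 41 between NP.P and NP rats, beside 13.1% of all probe sets. Between P.NP and P rats there were 5, beside 7.70%. The unequal-variance test called 0 in each (8 and 5 unadjusted, for which no share over all probe sets is given here). Of the lipocalin family, 4 genes other than Lcn2 passed the filter (Rbp4, Apod, C8g and Orm1). Between backgrounds 0 of these were called by limma (1 at an unadjusted p under 0.05, beside 30.0% of all probe sets). Their differences ran from -0.19 to 0.04.

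Markers of other marrow and bone cells had median background differences between -0.50 and 0.19, by list. The bone genes Bglap and Col1a1 and the haemoglobin gene Hbb had signals of at least 49414, 60077 and 55029 in every array, far above the filter. Counts of genes higher or lower here are of calls by limma at the 10% false discovery rate, beside 11.1% higher and 11.3% lower of all probe sets. Of 9 erythroid genes, 8 were called lower on the P background (median -0.24), and their summed signal ran from 197707 to 236976 on the P background and from 199595 to 275025 on the NP background. Of 6 megakaryocyte genes, 4 were called lower and 1 higher (median -0.50), with summed signals of 29967 to 38317 on the P background and 34166 to 55946 on the NP background. Of 11 macrophage genes, 5 were called lower and 1 higher (median -0.19), with sums of 24264 to 35169 on the P background and 28176 to 37442 on the NP background. Of 7 genes of eosinophils, basophils and mast cells, Epx, the eosinophil peroxidase (-1.06, SE 0.12, adjusted p = 2.88e-06), and Prg2, the eosinophil major basic protein (-0.93, SE 0.12, adjusted p = 1.82e-05), were lower, and Ms4a2 (0.65, SE 0.10, adjusted p = 0.000145) and Mcpt8 (0.25, SE 0.10, adjusted p = 0.0866), of basophils and mast cells, were higher. Their sums were 17065 to 29706 on the P background and 21409 to 49876 on the NP background. Of 5 B lymphoid genes 2 were called higher, of 8 osteoblast and osteocyte genes 2 higher (Alpl and Phex), of 8 skeletal muscle genes 1 higher, near the share of all probe sets, and of 4 T and NK cell genes 1 higher (Cd3g, log2 difference 1.30) and 1 lower. Of 3 osteoclast and 7 cartilage genes, 0 were called (limma; 0 at an unadjusted p under 0.05, beside 30.0% of all probe sets). The part of these cell types in the Lcn2 difference was not tested.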

How the data were processed

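Femur RNA of 20 rats, 5 per strain, was hybridised with 1 array for each rat. The authors deposited MAS5 signals, intensities on a linear scale scaled to the same 2% trimmed mean in every array. The study's own tests, the unequal-variance test among them, used robust multichip average values of probe sets called present; here all tests used the MAS5 signals. Detection calls and scan dates were not used here, and the number of arrays limits the precision. The median signal per array was 292 to 322. Of 31099 probe sets, 57 were controls and left out. Of the other 31042, 20826 had 1 gene symbol, 436 several and 9780 none, and only those with 1 were named. For genes with several probe sets, the one with the highest mean was read. Positions and promoters came from RefSeq tables of GRCr8 (20812 probe sets placed).

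Signals under 1 (190 values) were set to 1 and log2 was taken. The 18625 probe sets whose mean log2 reached the 40th percentile entered the tests. All 20 arrays were fitted as 4 strain means in 1 linear model (limma 3.58.1, R 4.3.3, 16 residual degrees of freedom), with Benjamini-Hochberg adjustment over all kept probe sets and a false discovery rate of 10%. Exact permutation tests went through all arrangements in Python 3.11.15. The unequal-variance test was run in scipy 1.17.1 and figures were drawn with matplotlib 3.10.9. The background contrast chose Lcn2 and is given for it without a test.

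Lcn2 and the gene lists were chosen with earlier results of these data known. Named genes were Lcn2, any member of the lists, the 5 genes with the highest r to Lcn2 over the arrays and the 5 with the highest after removal of strain means, the nearest tested gene on each side and any of the 20 neighbours that passed. RT1-Bb, RT1-Ba and Sgcb, named for their rank, were chosen after their values were seen. Alternatives were quantile normalization, dropping the filter or raising it to the 60th percentile, adding 21.7 to signals before taking logs, a trend of variance with level, fits of only the strains compared, the methods' unequal-variance test, a false discovery rate of 5%, the replicate number as a block, the mean of all neutrophil lists in place of the specific granule genes, and each array left out in turn.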

Additional observations from a re-analysis of the deposited data

Results flagged for a closer look

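Of 120 groups of 5 animals (30 genes, Lcn2 and the 29 neutrophil genes, in 4 strains), 14 held 1 animal apart from the other 4 by Dixon's criterion, where chance gives about 1 in 20 groups, or 6. No Lcn2 value stood apart. P.NP replicate 3 was high in Camp (16605, others 10684 to 12109), Pglyrp1 (5152, others 3089 to 3318) and Chi3l1, a chitinase-like protein (5351, others 3264 to 3757). NP replicate 1 was low in Np4 (37191, others 43440 to 46237), Defa5 (38845, others 48813 to 50345) and Lyz2 (38784, others 45563 to 47040). P replicate 2 was low in Cd63 (28069, others 33133 to 33575) and Mmp9 (8028, others 17064 to 19645), and NP replicate 2 was low in Mmp9 (8831, others 16404 to 18858) and Arg1 (54.8, others 156 to 234). The remaining ones were Ctsc in P.NP replicate 1 (2207, others 2860 to 3071), Pglyrp1 in NP replicate 3 (5383, others 4399 to 4604), Itgam in P replicate 3 (327, others 226 to 244) and Stfa3 in P.NP replicate 2 (24.9, others 103 to 168).

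The interaction test (limma) called 2 of the 29 neutrophil genes, where 0.317% of all probe sets were called. It asks whether the P segment acts differently on the backgrounds, but it also sets both congenic strains against both inbred strains. Cybb was lower in both congenic strains (-0.45 for NP.P minus NP, -0.58 for P.NP minus P). So was Fcnb (-0.51 and -0.14). Which reading applies was not tested. For Cybb the difference of effects, NP background minus P background, was -1.03 (adjusted p = 0.0266), and for Fcnb it was -0.65 (adjusted p = 0.0667). For Lcn2 the same difference was -0.43 (adjusted p = 0.257).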

How the results depend on the processing

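Of 302 recomputed values, 230 kept their direction and side of the threshold (counts: within 1.5 times), 54 became weaker, 18 stronger and 0 reversed. Some had little room to change. Leaving out an animal of a strain outside a comparison cannot move its difference, only its p. The background difference of Lcn2 chose the gene and has no threshold here. The background difference of Lcn2 stayed between -3.82 and -3.77 as each animal was left out. With all animals kept, the Lcn2 difference between NP.P and NP rats was -0.35, or -0.41 with quantile normalization (adjusted p = 0.0499, limma). The adjusted p was 0.0428 with the 60th percentile filter and 0.0406 with the mean-variance trend. The difference missed the threshold without a filter (adjusted p = 0.169) and with only those strains in the fit (0.206). It also missed it with the unequal-variance test (0.259) and at a false discovery rate of 5% (0.0774). With each animal left out it ran from -0.39 to -0.29 (adjusted p 0.0635 to 0.200). The difference between P.NP and P rats ran from -0.12 to -0.03 and the interaction from -0.47 to -0.36 (adjusted p 0.199 to 0.402). Relative to specific granule genes, the NP.P minus NP difference was -0.14 with quantile normalization, -0.12 against all neutrophil lists and -0.11 to -0.053 with animals left out, and P.NP minus P ran from 0.07 to 0.20. The cause of these changes was not tested.

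Neutrophil genes called between backgrounds (4) were 7 with a mean-variance trend, 8 with quantile normalization, 2 without a filter and 2 at 5%, and 2 to 8 with animals left out. Between NP.P and NP rats (2) there were 4 with the 60th percentile filter, 4 with the trend, 4 with quantile normalization, 1 with only those strains, 0 with the unequal-variance test, and 1 to 6 with animals left out. Between P.NP and P rats (1) there were 0 without a filter, 0 with only those strains, 0 at 5%, 0 with the unequal-variance test, and 0 to 1 with animals left out. Pathway genes called between backgrounds (8) were 4 without a filter, 5 with quantile normalization, 4 at 5%, and 4 to 10 with animals left out. Between NP.P and NP rats (0) there was 1 with the 60th percentile filter, 1 with the trend, and 0 to 2 with animals left out. Neighbours called (2) were 2 to 4.

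The labels give the replicate numbers no meaning beyond the strain, and they were not taken to pair the animals because not every same-numbered pair correlated above 0.1: residuals of same-numbered arrays correlated at -0.09 to 0.33 over 30 pairs (-0.33 to 0.25 over 120 other pairs), and 9 of 20 arrays correlated best with their own number, a hint from the data. With the replicate block, Lcn2 gave -0.35 for NP.P minus NP (adjusted p = 0.0562), -0.08 for P.NP minus P (adjusted p = 0.885) and -0.43 for the interaction (adjusted p = 0.197), and 1 pathway gene was called between NP.P and NP rats.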
